A study of Mus musculus with 24 samples.

Results

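The stretch of mouse chromosome 15 that begins 1 Mb and ends 2 Mb downstream of Myc was examined for its contacts with the Myc promoter in pro-B cells with and without the transcription factor EBF1. It was defined by distance alone, as every restriction fragment whose midpoint lies at chr15:62985342-63985341 (mm10), counted from the Myc transcription start at 61985341. Of 11106 fragments listed with at least 1 contact in either profile, 1564 lay in this window: 1064 in the wild-type profile and 1348 in the Ebf1-KO profile.

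The contacts came from H3K4me3 PLAC-seq, in which chromatin is cross-linked, cut and ligated in place, and ligation products that carry the promoter mark H3K4me3 are pulled down and sequenced. The cells were fetal liver pro-B cells on the C57BL6/J background, either wild type (3 samples) or Ebf1-KO (4 samples), expanded on OP9 stromal cells with IL-7, KIT ligand and FLT3 ligand. Their labels name no vector, and the samples of a genotype were pooled by the authors into 1 profile, so no contact value has a replicate error. RNA was sequenced from 14 libraries of the same kind of culture, which all carried the retroviral vector pMiG: an empty one in wild-type cells, and one that was empty or encoded Ebf1 or Pax5 in Ebf1-KO and in Pax5-KO cells, each combination with 2 libraries. EBF1 binding was mapped in 230-238 cells, an Abelson-transformed pre-B line and thus neither of the cultures used for the contacts, from 2 immunoprecipitated samples and 1 input.

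Enhancers are DNA stretches that bind transcription factors and raise the output of a promoter that they reach through the folding of chromatin, often over long distances. Downstream of Myc, mouse genetics has placed a NOTCH-dependent enhancer used by T cell precursors and, farther out, a cluster of enhancer modules that blood stem cells, myeloid cells and B-lineage cells use in different combinations. MYC promotes cell growth and the cell cycle, and EBF1 and PAX5 are the factors that commit precursors to the B lineage.

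Annotation within the window was sparse. RefSeq (GRCm38.p6, the same build as mm10) placed 19 genes there, of which 5 code for protein, and 0 of those 5 overlapped the first 600 kb. That first stretch held long non-coding RNA genes, among them Gm41335 (chr15:63353241-63357026) and Gm20740 (chr15:63414397-63479608). Between 1.6 and 1.8 Mb lay the long non-coding RNA genes 4930449C09Rik (chr15:63718348-63737636) and Gm41336 (chr15:63740669-63745359) and the near end of Gsdmc. The gasdermin C genes, which encode pore-forming proteins, filled chr15:63775971-63925453, and the last stretch overlapped Fam49b, now named Cyrib, a regulator of actin dynamics.

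Promoter sequences from RefSeq (GRCm38.p6) were matched for 6 of the 19 genes, each running from 250 bases before to 50 after the start, and 3 are shown: the only matched start within the region of densest contact (4930449C09Rik), the one within the 100 kb with the lowest Ebf1-KO to wild-type ratio (Gm41335), and the lncRNA of the window whose RNA could be counted (Gm20740). Capitals mark matches to the motifs searched on both strands, which were the EBF half-site pair CCCNNGGG, the RUNX motif TGTGGT, and the ETS motifs CCGGAA and AGGAAGTG. The last was added after these promoters had been read.
4930449C09Rik promoter, chr15:63718098-63718397, plus strand: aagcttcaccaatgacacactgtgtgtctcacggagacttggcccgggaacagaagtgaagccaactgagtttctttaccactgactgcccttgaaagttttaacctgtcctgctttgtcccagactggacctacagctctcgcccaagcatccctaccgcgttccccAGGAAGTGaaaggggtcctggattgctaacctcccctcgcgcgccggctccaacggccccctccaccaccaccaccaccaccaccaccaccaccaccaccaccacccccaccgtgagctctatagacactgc
Gm41335 promoter, chr15:63356977-63357276, minus strand: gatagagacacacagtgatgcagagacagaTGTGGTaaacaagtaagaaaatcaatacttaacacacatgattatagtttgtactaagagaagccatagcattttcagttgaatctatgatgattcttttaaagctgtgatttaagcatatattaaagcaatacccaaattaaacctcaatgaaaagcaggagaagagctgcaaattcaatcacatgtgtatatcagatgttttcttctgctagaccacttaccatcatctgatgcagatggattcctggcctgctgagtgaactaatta
Gm20740 promoter, chr15:63479559-63479858, minus strand: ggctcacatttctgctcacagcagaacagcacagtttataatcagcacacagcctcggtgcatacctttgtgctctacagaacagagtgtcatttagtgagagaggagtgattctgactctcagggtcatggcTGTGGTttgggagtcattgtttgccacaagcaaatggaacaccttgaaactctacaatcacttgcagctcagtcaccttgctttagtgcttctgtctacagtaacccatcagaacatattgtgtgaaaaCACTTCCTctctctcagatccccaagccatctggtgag
The 6 promoters held 0 matches to CCCNNGGG, which 13.67% of all 32851 promoters of this length hold. AGGAAGTG, held by 4.073% of promoters, was matched in 4930449C09Rik, Gm20740 and Gsdmc3. TGTGGT, held by 16.76%, was matched in Gm41335 and Gm20740, and CCGGAA, held by 14.90%, was matched in 0 of the 6. A match is a description of the letters and not evidence of binding.

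The window took a large part of the Myc promoter contacts in both genotypes, far more than the next 1 Mb downstream or the mirrored stretch upstream. In wild-type cells it held 2222 of 7954 chr15 contacts lying over 10 kb from Myc, a share of 27.94% (95% exact Clopper-Pearson interval 26.95 to 28.94). In Ebf1-KO cells it was 3748 of 15268, a share of 24.55% (23.87 to 25.24). These intervals, and all intervals of ratios given with them, cover counting error only, since a pooled profile holds no spread between cultures and reads without molecular identifiers are not independent molecules. The mirrored stretch 1 to 2 Mb upstream held 164 and 329 contacts, so the window held 13.55 times as many in wild type and 11.39 times as many in Ebf1-KO. The next 1 Mb downstream held 188 and 244, and the window exceeded it 11.82 and 15.36 times.

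**Figure D1:**
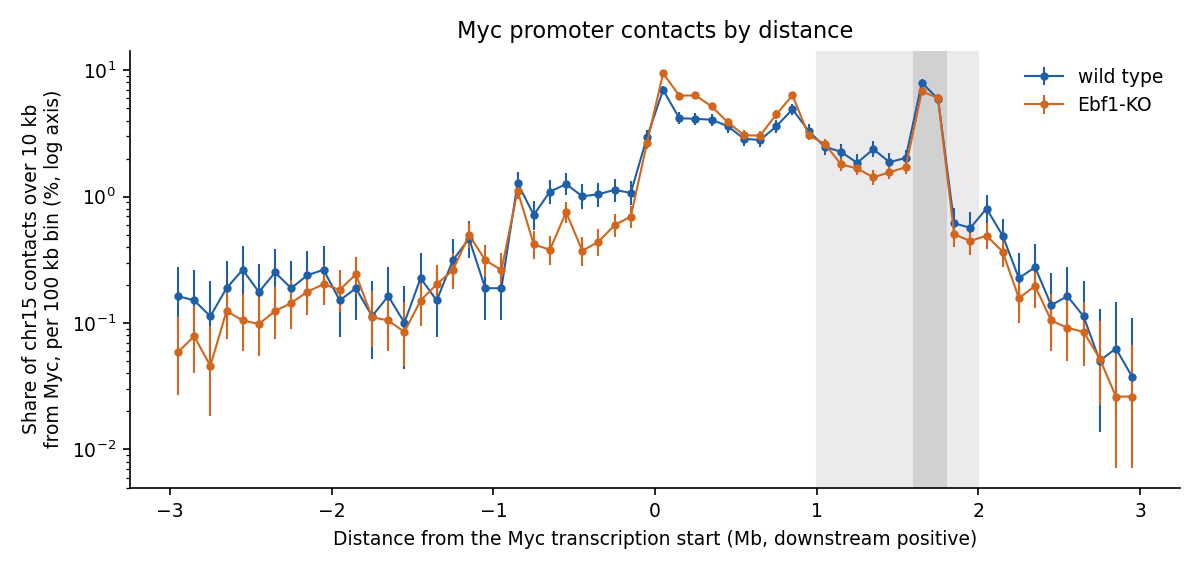
Share of chr15 contacts over 10 kb from Myc in each 100 kb bin (vertical, percent, log axis) against distance from the Myc start (horizontal, Mb, downstream positive), in wild type (blue) and Ebf1-KO (orange), with 95% counting intervals. The light band is the window and the dark band 1.6 to 1.8 Mb, where the shares of the first bin reach 7.958% and 6.792%.

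Within the window the contacts were densest in one block. The stretch from 1.6 to 1.8 Mb, at the position of the blood enhancer cluster, held 1105 wild-type and 1958 Ebf1-KO contacts, 49.73% and 52.24% of the window's contacts in 200 kb. It held 5.525 contacts per kb in wild type against 1.705 in the 600 kb before it, and 9.790 against 2.742 in Ebf1-KO, a density 3.240 and 3.571 times that of the stretch before it. Compared with the mirrored 200 kb upstream, which held 22 and 33 contacts, the block held 50.23 and 59.33 times as many.

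Both edges of the block lay in the same 100 kb bins in both genotypes, and at 10 kb resolution the near edge was the more abrupt. From the bin 1.5 to 1.6 Mb to the bin 1.6 to 1.7 Mb, contacts went from 161 to 633 in wild type, up 3.932-fold, and from 261 to 1037 in Ebf1-KO, up 3.973-fold. On the far side, from 1.7 to 1.8 Mb into 1.8 to 1.9 Mb, they went from 472 to 49 in wild type, down 9.633-fold, and from 921 to 77 in Ebf1-KO, down 11.96-fold. At 10 kb resolution the near edge lay between the bin starting at 1.6 Mb, with 35 and 49 contacts, and the bin starting at 1.610 Mb, with 94 and 140. The far edge was a stepwise decline, with 52 and 99 contacts in the bin starting at 1.750 Mb, 30 and 59 at 1.760 Mb, 33 and 76 at 1.770 Mb, 39 and 72 at 1.780 Mb, 21 and 44 at 1.790 Mb, 15 and 23 at 1.8 Mb, and 5 and 17 at 1.810 Mb. The last 3 of these bins overlap Gsdmc, which starts 1.791 Mb from Myc.

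The profile inside the block was likewise shared. Over the 100 bins of 10 kb, wild-type and Ebf1-KO contacts had a Pearson correlation of 0.9572, and over the 20 bins within 1.6 to 1.8 Mb alone 0.9161. These points share the fragment map and their mappability as well as the viewpoint, so the correlations are given as descriptions. The 5 richest bins of each genotype made 6 bins in all, of which 4 were among the 5 of both genotypes. Of the 20 richest bins of the window, 19 in wild type and 18 in Ebf1-KO lay in the block.

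The richest bin, chr15:63645342-63655341, held 94 wild-type contacts (1.182% of the total) and 180 in Ebf1-KO (1.179%). It contains 2 EBF1 peaks. The bin chr15:63595342-63605341, just inside the near edge and with 0 EBF1 peaks, held 94 and 140 contacts and so tied with it in wild type. The bin chr15:63715342-63725341 covers the 4930449C09Rik promoter printed above and held 88 and 135. Its neighbour chr15:63725342-63735341, within the body of the same gene, held 65 and 139. The remaining bins of the sets, chr15:63615342-63625341 and chr15:63655342-63665341, held 73 and 113, and 69 and 136 contacts. None of these 6 bins had a ratio of shares whose interval lay wholly on one side of 1: the ratios ran from 0.7759 (0.5932 to 1.019) to 1.114 (0.8241 to 1.520).

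**Figure D2:**
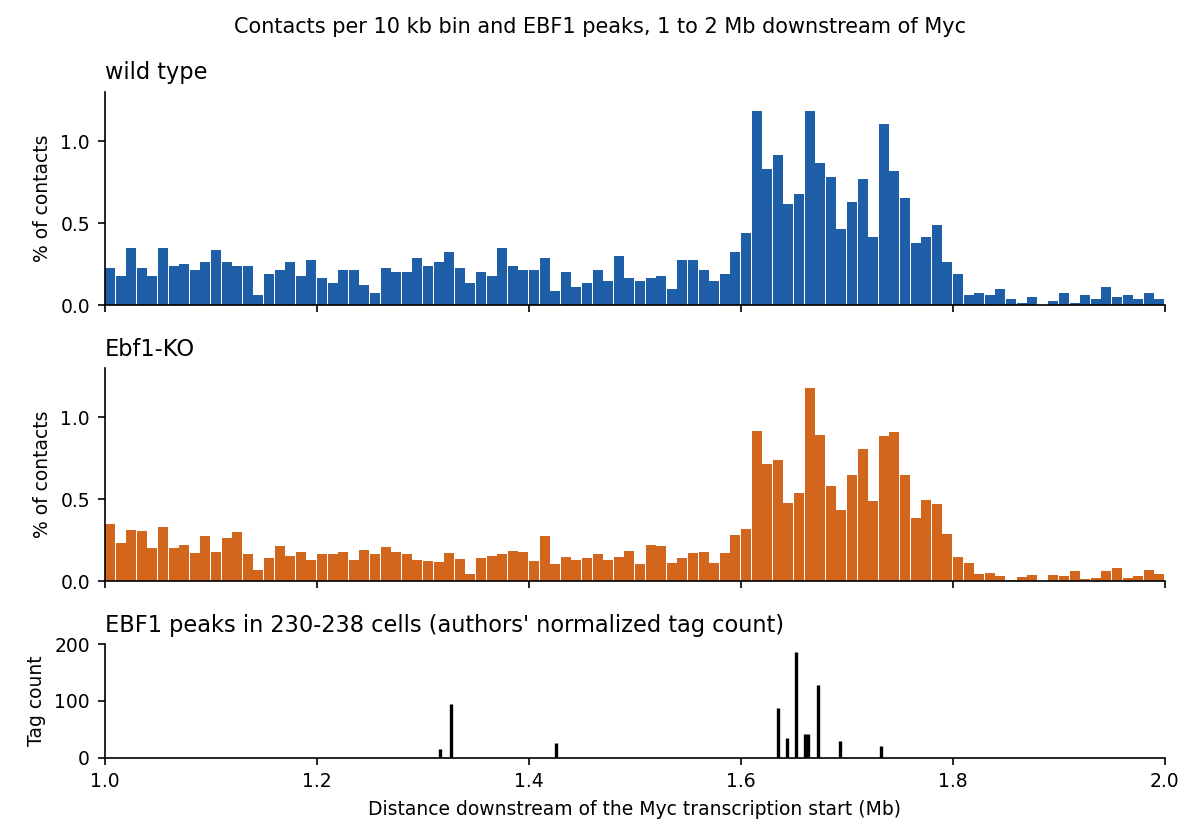
Share of chr15 contacts over 10 kb from Myc per 10 kb bin of the window (percent, upper panels) and the authors' normalized tag count of each EBF1 peak in 230-238 cells (lower panel) against distance downstream of Myc in Mb. The block between 1.6 and 1.8 Mb stands out in both wild type and Ebf1-KO, and 8 of the 11 peaks lie in it.

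Single fragments of the window carried few contacts, so the description rests on bins. A listed fragment had on average 2.088 contacts in wild type against 2.780 in Ebf1-KO, and at most 12 and 18, while 49.15% and 38.58% of listed fragments had 1 contact. The 848 fragments listed in both profiles were 79.70% of the wild-type and 62.91% of the Ebf1-KO fragments of the window. The deeper Ebf1-KO profile, 1.898 times the wild-type total of 9143 contacts, listed 500 fragments that wild type did not. Wild type listed 216 that Ebf1-KO did not. Over the whole genome wild type listed 5693 fragments and Ebf1-KO 8006, with 11106 in either. The window had 1064, 1348 and 1564, so a larger part was shared there than over the genome. This was not particular to the window: up to 1 Mb downstream the numbers were 1420, 1870 and 1966, a still larger shared part. The fragment with the most wild-type contacts, chr15:63648254-63650247, had 12 in wild type against 15 in Ebf1-KO, and its centre lay 0.9095 kb from that of an EBF1 peak. The one with the most Ebf1-KO contacts, chr15:63652557-63653073, had 18 there and 11 in wild type. The widest gap among the 9 fragments ranked in the first 5 of either profile was at chr15:63724702-63725099 in 4930449C09Rik, with 1 wild-type and 17 Ebf1-KO contacts, while a fragment of the same gene at chr15:63720848-63721445 had 10 and 7.

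The share of Myc contacts in the window was lower in Ebf1-KO than in wild type by a ratio of 0.8787 (0.8336 to 0.9265), and this depended on what the share was taken of. Contacts within 1 Mb downstream of Myc were 40.42% in wild type and 51.07% in Ebf1-KO, a ratio of 1.263 (1.212 to 1.317). When only contacts over 1 Mb from Myc were used as the total, the window held 58.38% (56.80 to 59.95) in wild type and 59.49% (58.27 to 60.71) in Ebf1-KO, a ratio of 1.019 (0.9667 to 1.074). Thus the share of the distant contacts that fell in the window differed between genotypes by less than counting error. With each listed fragment counted once, the ratio of the first 1 Mb turned to 0.9655 (0.9006 to 1.035). That of the window was 0.9285 (0.8561 to 1.007), so that both intervals held 1. This way of counting is limited by depth. The Ebf1-KO profile, 1.898 times as deep, listed 1870 of the 1966 fragments listed in the first 1 Mb in either profile, and wild type 1420. Counting once therefore cannot tell a difference in contacts from the difference in depth. Whether the difference in the window or in the first 1 Mb exceeds the spread between cultures could not be tested.

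Across the chromosome, ratios below 1 were common. The window's 10 bins of 100 kb had a median Ebf1-KO to wild-type ratio of 0.8383, beside 0.8321 over all 89 bins of chr15 with at least 10 contacts and 1.257 over the 10 bins up to 1 Mb downstream. Of the 10 bins, 8 had a ratio below 1. A share lower by at least 1.5-fold in Ebf1-KO was seen in 1 of 10 bins, where the background over chr15 was 36.0% of bins, and a share higher by as much in 0 of 10, where the background was 14.6%. The background bins held a median of 37 contacts over both profiles and those of the window 113 to 1670, so counting error moves the ratios of background bins more.

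**Figure D3:**
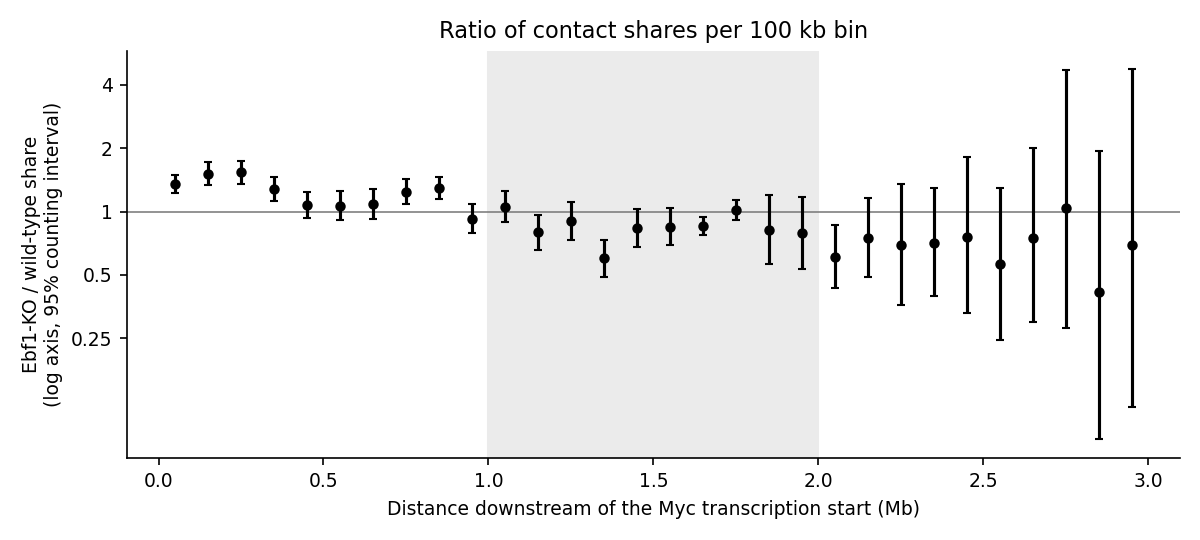
Ratio of the Ebf1-KO to the wild-type contact share per 100 kb bin (vertical, log axis, with 95% counting intervals) against distance downstream of Myc (horizontal, Mb); the band is the window and the line marks equal shares. Ratios within the window run from 0.5981 at 1.3 to 1.4 Mb to 1.055 at 1.0 to 1.1 Mb.

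Along the window the ratio varied. At its near end the bin 1.0 to 1.1 Mb held 197 and 399 contacts, with a ratio of 1.055 (0.8874 to 1.258), and the bin just outside, 0.9 to 1.0 Mb, held 263 and 467, with a ratio of 0.9250. At its far end the bin 1.9 to 2.0 Mb held 45 and 68, with a ratio of 0.7872, and the one just outside held 64 and 75, with a ratio of 0.6105. In the bin 1.2 to 1.3 Mb, the position of the NOTCH-dependent T cell enhancer, contacts were 147 and 255 and the shares 1.848% and 1.670%, a ratio of 0.9037 (0.7348 to 1.115). In wild type it held fewer contacts than either neighbour, with 180 before it and 189 after it, and in Ebf1-KO a number between theirs, 275 and 217. It contained 0 EBF1 peaks.

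The blood enhancer block divided into unequal parts. Its nearer 100 kb, with 633 and 1037 contacts, had shares of 7.958% and 6.792% and a ratio of 0.8535 (0.7724 to 0.9436). Its farther 100 kb, with 472 and 921 contacts, had shares of 5.934% and 6.032% and a ratio of 1.017 (0.9088 to 1.138). At 10 kb resolution 9 of 10 bins of the nearer part were lower in Ebf1-KO and 7 of 10 of the farther part were higher. Over the whole window 65 of 100 bins were lower and 34 higher. The block as a whole had shares of 13.89% and 12.82%, a ratio of 0.9231 (0.8570 to 0.9947), which became 1.070 (0.9939 to 1.153) with contacts over 1 Mb as the total. With that total the nearer part had a ratio of 0.9897 (0.8957 to 1.094) and the farther part 1.179 (1.054 to 1.320). Which part differed between genotypes thus depended on the total.

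The lowest ratio of the window was in the bin 1.3 to 1.4 Mb, singled out here after its value was seen. It held 189 wild-type contacts and 217 in the deeper Ebf1-KO profile, shares of 2.376% and 1.421%, a ratio of 0.5981 (0.4899 to 0.7308). All 10 of its 10 kb bins had a lower share in Ebf1-KO, with a median ratio of 0.5644. In the stretch before it 6 of the 10 bins did, and over the whole window 65 of 100. The smaller bins hold the same contacts as the bin singled out, so their count is not separate support for its low ratio. With contacts over 1 Mb as the total the ratio was 0.6936 (0.5681 to 0.8475), no longer past 1.5-fold, and 9 of the 10 smaller bins were lower. The Gm41335 gene and its promoter, printed above, lie in this bin; within 5 kb of that promoter's centre there were 30 wild-type and 25 Ebf1-KO contacts.

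Genes in the window differed widely in contact density, following the block. The body of 4930449C09Rik had 156 wild-type and 290 Ebf1-KO contacts, 8.088 and 15.03 per kb, and a ratio of shares of 0.9684 (0.7945 to 1.184). Gm20740, before the block, had 95 and 149 contacts, 1.457 and 2.285 per kb. The gasdermin C genes from Gsdmc to Gsdmcl-ps had 84 and 138 contacts, 0.5619 and 0.9232 per kb, of which Gsdmc at the block's edge held 44 and 81. The part of Fam49b inside the window had 27 and 42.

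EBF1 peaks of 230-238 cells were crowded into the same block. Of 17230 peaks in the authors' list, 722 were on chr15, 6.939 per Mb of its listed length, and 11 were in the window, all 11 outside the annotated genes. Of these 11, 8 lay between 1.6 and 1.8 Mb, 7 of them within 1.6 to 1.7 Mb, 2 in the bin 1.3 to 1.4 Mb and 1 in the bin 1.4 to 1.5 Mb. The stretch from 1.8 to 2.0 Mb had 0. The first 1 Mb downstream had 15, the third 1 Mb 11 and the mirrored upstream stretch 1.

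The strongest peak of the window by the authors' score, chr15:63636716-63637036, had a normalized tag count of 186.4 and a score of 240. It ranked 3 on the chromosome by tag count, the order used for all peak ranks here. The peak at chr15:63657815-63658135 had a tag count of 128.7 and ranked 20, that at chr15:63312650-63312970 had 93.8 and ranked 47, and that at chr15:63619969-63620289 had 87.7 and ranked 55. The median tag count of the 11 peaks was 41.6, beside 25.5 over the whole list. At Myc itself the list had a peak at -1.498 kb from the start, with a tag count of 64.9 and rank 93, and one 5.701 kb after it with 12.2.

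Contacts were denser around the peaks than in the rest of the window in cells with and without EBF1, but within the block this held in Ebf1-KO only at some distances. Within 5 kb of a peak centre there were 4.824 contacts per kb in wild type against 1.940 in the rest, 2.487 times as many, and 7.644 against 3.325 in Ebf1-KO, 2.299 times as many. The difference was smaller inside the block: within 1.6 to 1.8 Mb alone, the density near peaks was 1.203 times that of the rest of the block in wild type and 1.072 times in Ebf1-KO. Within 2 kb of a peak centre these values were 1.155 and 0.9243, the latter below 1, and within 10 kb they were 1.364 and 1.215. Contacts within 5 kb of a peak had an Ebf1-KO to wild-type ratio of 0.8256 (0.7348 to 0.9284) and the rest of the window 0.8931 (0.8417 to 0.9478), and these intervals overlap.

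Peak by peak, the 8 sites of the block had ratios of shares from 0.7029 to 1.084. Around chr15:63657815-63658135 there were 75 wild-type and 156 Ebf1-KO contacts within 5 kb, a ratio of 1.084 (0.8176 to 1.447). Around the strongest peak, chr15:63636716-63637036, there were 55 and 77, a ratio of 0.7293 (0.5094 to 1.050). Around the peak before 4930449C09Rik, chr15:63716685-63717005, there were 63 and 85, a ratio of 0.7029 (0.5015 to 0.9897). The pair in the bin 1.3 to 1.4 Mb was lower: 22 and 20 contacts around chr15:63300777-63301097, a ratio of 0.4736 (0.2452 to 0.9095), and 21 and 17 around chr15:63312650-63312970, a ratio of 0.4217 (0.2089 to 0.8393). The whole bin around this pair had a low ratio, as given above. The peak at chr15:63410967-63411287 had 7 and 16.

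**Figure D4:**
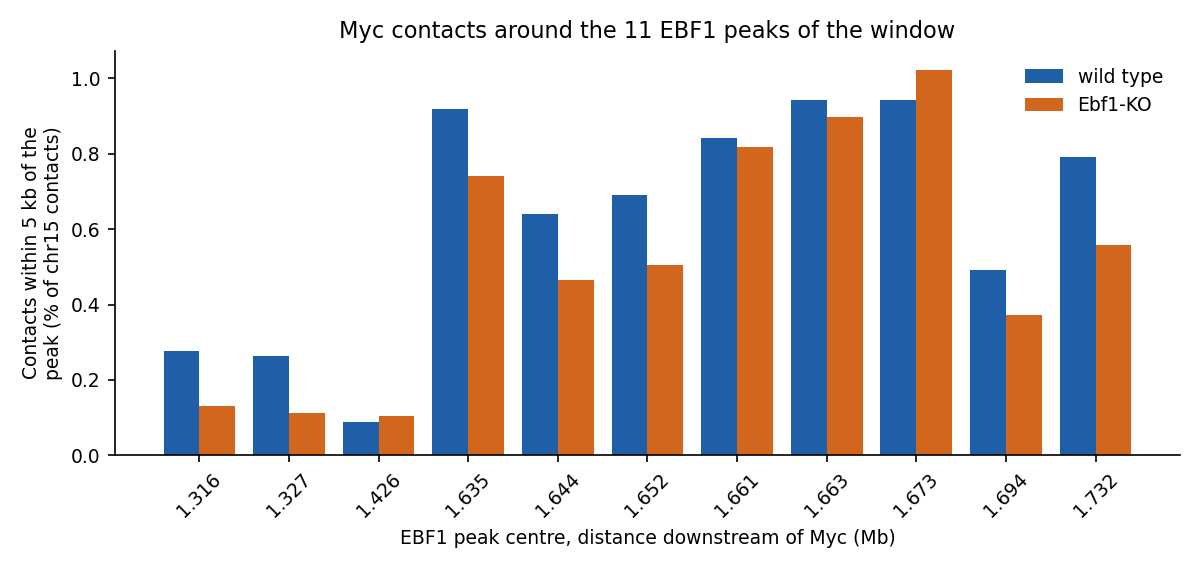
Myc promoter contacts within 5 kb of each EBF1 peak centre in the window, relative to all chr15 contacts over 10 kb from Myc (vertical, percent), for the 11 peaks in order of distance downstream of Myc (horizontal, Mb), in wild type (blue) and Ebf1-KO (orange). The first peaks, at 1.316 and 1.327 Mb, have the lowest ratios (0.4736 and 0.4217), and the peak at 1.673 Mb is the one of the block with a ratio above 1.

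RNA of the genes that the window could serve was compared between Ebf1-KO and wild-type cells with the empty vector. Over 14550 genes tested with edgeR's quasi-likelihood test, 1167 were higher (8.02%) and 967 lower (6.65%) in Ebf1-KO at a Benjamini-Hochberg adjusted p under 0.05. Without wild-type library 2 the counts were 683 and 613, without Ebf1-KO library 2 they were 752 and 599, and without Ebf1-KO library 1 they were 816 and 511. Levels below are in CPM, counts scaled to a common library size. For Ebf1 itself they were 966.1 and 1102 in the wild-type pair of libraries, against 243.9 and 282 in Ebf1-KO. The sources used here do not say which part of Ebf1 is deleted, so its remaining counts do not check the label. The labels do not say that the 2 libraries of a group came from separate cultures, so p-values reflect the spread between samples alone, and that spread may be technical.

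Myc had 299.3 and 248.2 CPM in wild type and 143.4 and 186.6 in Ebf1-KO. The log2 fold change was -0.73 ± 0.25 (SE), which missed the threshold by edgeR (adjusted p = 0.06814) and passed it by DESeq2 (adjusted p = 0.02502). It also passed by edgeR with the library number as a block (log2 fold change -0.76, adjusted p = 0.01487). That fit left out the Pax5-KO empty-vector group. The deviations of same-numbered libraries correlated at only -0.0433 between wild type and Ebf1-KO. Over 8 alternative fits the fold change was between -0.96 and -0.53, and 4 of the 8 made the call. The call was absent in every fit that left out 1 of the wild-type or Ebf1-KO libraries. In Ebf1-KO cells with Ebf1 restored Myc had 308.3 and 417.9 CPM, and with Pax5 66.79 and 84.33. In Pax5-KO cells it had 276.8 and 344.4 with the empty vector and 498.8 and 670.1 with Pax5. Contacts with restored factors or in Pax5-KO cells were not analysed here.

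Of the genes around the window, Pvt1, Gm20740, Gsdmcl-ps, Fam49b and Asap1 were tested and 1 passed, Asap1. The background over all genes tested was 8.02% higher and 6.65% lower. Those that overlap the window, Gm20740, Gsdmcl-ps and Fam49b, were not called. Pvt1, the long non-coding RNA gene just downstream of Myc, had 23.46 and 40.62 CPM in wild type and 19.31 and 8.046 in Ebf1-KO, a log2 fold change of -1.23 ± 0.50 (SE) that did not pass (edgeR adjusted p = 0.1265). Gm20740 was near the limit of detection, with 21 and 4 counts in wild type and 6 and 0 in Ebf1-KO (edgeR adjusted p = 0.4862). Fam49b had 102.7 and 97.96 CPM in wild type and 103 and 106.8 in Ebf1-KO, a log2 fold change of 0.06 ± 0.25 (SE) (edgeR adjusted p = 0.9183). Asap1, a regulator of ARF GTPases whose gene body lies beyond the far end of the window, fell: it had 90.9 and 116 CPM in wild type and 26.72 and 25.24 in Ebf1-KO, a log2 fold change of -1.99 ± 0.24 (SE) (edgeR adjusted p = 3.073e-05), and all 8 alternative fits called it.

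The gasdermin C genes had few or no counts, in libraries that held 16.1 to 42.1 M counts over exons (M, mega). Gsdmc2 and Gsdmc3 had 0 counts in all 14 libraries, Gsdmc had 2 counts in 1 Ebf1-KO library and 0 in the others, and Gsdmc4 had at most 2 in any library. These genes were not tested, nor were the pseudogenes Gsdmcl1, Gsdmcl2 and 1700065I16Rik, which also had 0 counts. The pseudogene Gsdmcl-ps had 32 and 43 counts in wild type and 23 and 16 in Ebf1-KO (edgeR adjusted p = 0.558). RNA of 4930449C09Rik was not analysed here.

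**Figure D5:**
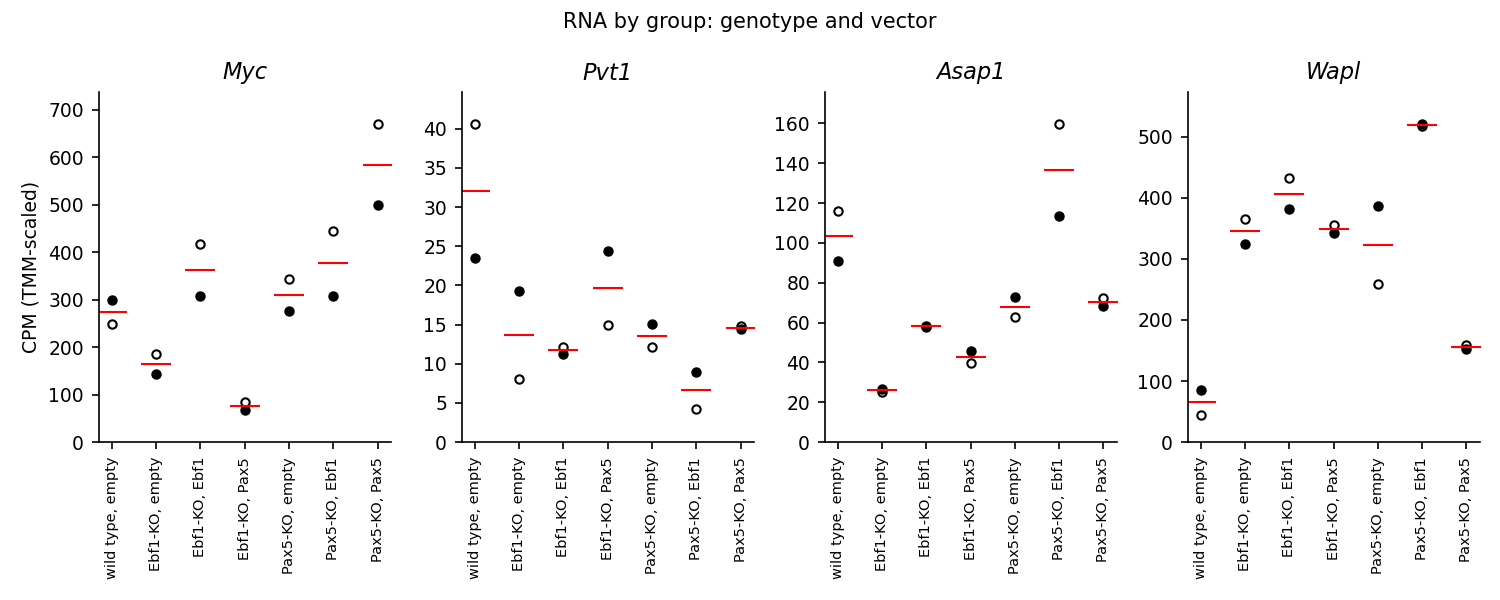
RNA level in CPM (vertical, TMM-scaled) of Myc, Pvt1, Asap1 and Wapl in the 7 groups of genotype and vector (horizontal); filled and open circles are libraries 1 and 2 and the red bar is their mean. Wapl is at 85.31 and 44.57 CPM in wild type and at 152 or more in each library of the other groups, and Asap1 is lowest in Ebf1-KO with the empty vector.

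Of 17 genes for proteins that fold chromatin or bridge enhancers and promoters, 1 was higher and 3 were lower in Ebf1-KO, and 13 did not pass, where the background over all genes tested was 8.02% higher and 6.65% lower; the median log2 fold change was -0.37, beside 0.03 over all genes tested. The count higher is thus near its background. Wapl, whose product releases cohesin from chromatin and so shortens the loops that cohesin extrudes, is known to be repressed by PAX5 in pro-B cells. It had 85.31 and 44.57 CPM in wild type and 324.5 and 365.2 in Ebf1-KO, a log2 fold change of 2.41 ± 0.28 (SE) (edgeR adjusted p = 1.9e-05). It had 385.7 and 258.2 CPM in Pax5-KO cells with the empty vector and 152 and 159.2 with Pax5 restored, while in Ebf1-KO cells given Pax5 it had 342.5 and 355.8. Nipbl, which loads cohesin, fell from 781.5 and 710.3 to 379.6 and 393.8 CPM (edgeR adjusted p = 0.002298). Smarca4, the ATPase of the BAF remodelling complex, fell from 1871 and 1501 to 327.8 and 514 CPM (edgeR adjusted p = 1.959e-05). The cohesin subunit gene Stag1 had a log2 fold change of -0.66 (edgeR adjusted p = 0.03501) and lost its call in each of the 4 fits that left out 1 library, with adjusted p up to 0.2173. Ctcf had a log2 fold change of -0.43 and did not pass (edgeR adjusted p = 0.2771). The part of these genes in the contact profiles was not tested.

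Of 28 transcription factor genes of blood and lymphoid enhancers, 10 were higher, 9 lower and 9 did not pass, beside 8.02% higher and 6.65% lower over all genes tested, and the median log2 fold change was 0.78, beside 0.03. Of the called genes, those that rose most were Cebpa, Hoxa9, Runx2, Gata3, Tcf7 and Cebpb, factors of myeloid, stem and T-lineage or innate lymphoid cells. Gata2 and Gata1, with 0 counts in wild type and 26 and 21 in Ebf1-KO, had log2 fold changes of 6.85 and 6.50. They did not pass (edgeR adjusted p = 0.1338 and 0.2173). Runx2 had 2.124 and 2.117 CPM in wild type and 519.3 and 682.7 in Ebf1-KO, and Hoxa9 0.8805 and 0.1144 against 314.5 and 206.5. Cebpa had 0 counts in wild type and 234 in Ebf1-KO, at least 56.5-fold higher against a floor of 3 counts summed over both libraries. Its call was lost in 3 of the fits that left out 1 library, and that of Cebpb without wild-type library 1 (log2 fold change 3.93, edgeR adjusted p = 0.0869). Those that fell most were Pax5, Erg, Foxo1, Ebf1, Ets1 and Tcf3. Foxo1 went from 587.7 and 638 CPM to 23.02 and 21.27, and Erg, an ETS factor, from 436.4 and 438.5 to 5.17 and 10.43. Notch1, named here after its value was seen because of the enhancer at 1.2 to 1.3 Mb, rose by 1.05 on the log2 scale, from 181.7 and 234.2 to 399.2 and 460.6 CPM (edgeR adjusted p = 0.001387).

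The 2 genotypes differed in their cell type markers as well, and the contact profiles compare the same genotypes, in cells whose labels name no vector. The counts of called markers stand beside the same background of 8.02% higher and 6.65% lower. All 10 early B markers were lower in Ebf1-KO, and their summed level was 8177 to 8701 CPM in wild type and 275.1 to 323.9 in Ebf1-KO. The list includes Ebf1, the gene knocked out, so its fall is not a separate observation. Its counts, given above, make up most of the Ebf1-KO sum. Myeloid markers summed to 26.61 to 28.69 CPM in wild type and 702.1 to 705.4 in Ebf1-KO (8 of 10 higher). NK and innate lymphoid markers summed to 2.538 to 5.893 and 245.8 to 310.5 (7 of 10 higher), and T markers to 8.583 to 10.67 and 257.9 to 297.8 (7 of the 9 in the table higher). Stroma markers summed to 12.3 to 28.69 and 111.2 to 168.7 (1 of 8 higher). Of the 3 stroma genes tested, Thy1 passed (log2 fold change 2.80), and Col1a1 (0.78) and Sparc (2.66) did not. Col1a2, not tested, had 6 counts in wild type and 3 in Ebf1-KO. The stroma sum thus rests on few genes. Of the defining markers, Cebpa, Ctsg, Gzmb, Ncr1, Cd3e, Cd3g and Bcl11b were at 0 in both wild-type libraries, and 4 of the 8 stroma markers were at 0 in both libraries of each genotype. The label pro-B thus holds for early B markers in wild type and not in Ebf1-KO cells, where these markers are low. In bulk samples fewer cells of a type and less RNA per cell cannot be told apart, and the part of this difference in the contact profiles was not tested.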

How the data were processed

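The contact profiles deposited by the authors give, for each restriction fragment, the count of contacts it made with the Myc start fragment, pooled per genotype, per the file headers and labels; fragments with 0 contacts are not listed. The RNA table holds raw read counts over exons per gene, which the authors produced in HOMER per the file headers. The EBF1 peak list, also from HOMER per the file headers, gives a normalized tag count (a signal scaled by the authors), a score and a fold ratio against the control, all the authors' own values. HiC-Pro 2.11.1, HOMER 4.8, Bowtie2 (2.3.5 and 2.3.4.2) and STAR 2.6.0b-1 are among the tools named, on mm10, per the submitters' processing notes. The restriction enzyme's effect on fragment density, mappability and strand of the RNA counts were not corrected for, and none of these settings is given in the sources used here.

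A share is a window's contacts over the chr15 contacts more than 10 kb from Myc, with an exact Clopper-Pearson 95% interval; a ratio of shares has an exact conditional binomial interval. With 1 profile per genotype there is no test. A 100 kb bin was counted as past the fold at a ratio of 1.5 or its inverse, among bins with at least 10 contacts over both profiles. RNA was tested with edgeR 4.0.16 in R 4.3.3 (TMM, filterByExpr, quasi-likelihood test, 1 fit over the 7 groups, Benjamini-Hochberg over 14550 of 24506 genes, threshold 0.05), with DESeq2 1.42.0 as an alternative; CPM is the count per M of TMM-scaled library size. In data simulated for this comparison with 14244 genes, the test called 59 of 100 genes that were shifted 2 units on the log2 scale and 13 of 100 shifted 1 unit, with 0 of the wrong sign and 4 false calls. All columns were matched to samples by name, and the unnumbered column of Pax5-KO cells with empty vector was counted as a library of that group. Per the file headers, every library numbered 1 carries one date-like suffix, which the unnumbered column shares, and every library numbered 2 another, so the number was taken to pair libraries across groups and was used as a block in an alternative fit; what the suffix dates is not given. The deviations of same-numbered libraries correlated at over 0.1 in 9 of 15 pairs of groups and at -0.0433 between wild type and Ebf1-KO.

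Genes named are Myc, Pvt1, those of the count table overlapping the window or whose lower coordinate lies within 250 kb of it, and up to 6 called genes per direction of each list. Regions named are the positions of the known enhancers, the 5 richest 10 kb bins and 5 richest fragments per genotype, all EBF1 peaks and the end bins. The window and the lists were chosen with earlier results of these data known. Peak sequences are not shown, since no genome was used here.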

Additional observations from a re-analysis of the deposited data

How the results depend on the processing

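Leading limits are the pooling of samples within each genotype, the unequal depth of the profiles and the choice of the total. For the window's share, other totals gave in wild type 31.01% (contacts over 100 kb from Myc), 32.29% (10 kb to 3 Mb) and 58.38% (over 1 Mb), and in Ebf1-KO 23.80% (all chr15 contacts), 27.92%, 27.83% and 59.49%. Counting each listed fragment once gave 22.75% and 21.12%, and capping fragments at 3 contacts gave 26.68% in wild type. The window's ratio was 0.9285 (0.8561 to 1.007) with fragments counted once, 0.9318 (0.8783 to 0.9888) with the cap, and turned to 1.019 with contacts over 1 Mb as the total, as did that of 1.6 to 1.8 Mb, to 1.070. The ratio up to 1 Mb downstream turned to 0.9655 (0.9006 to 1.035) with fragments counted once. Counting fragments once or capping them is itself limited by the unequal depth. The total over 1 Mb was chosen after seeing the data, as was the restriction to 1.6 to 1.8 Mb, within which contact density near EBF1 peaks over the rest was 1.203 in wild type and 1.072 in Ebf1-KO within 5 kb, and 1.155 and 0.9243 within 2 kb. Over the whole window it was 1.964 in Ebf1-KO within 2 kb and 2.590 within 10 kb. Bins lower by the fold numbered 0 at 2-fold, 0 with contacts over 1 Mb as the total, and 2 of the 50 kb bins. Leaving out each wild-type or Ebf1-KO library in turn, where the lone library is assumed to vary like the other groups, gave 683 to 891 genes higher (683 without wild-type library 2, 752 without Ebf1-KO library 2) and 511 to 713 lower (613 and 599 without those, 511 without Ebf1-KO library 1).

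No paired analysis was possible because each contact profile pools its samples. For RNA, the fit with the replicate block left out the Pax5-KO empty-vector group. It called 1213 genes higher and 1123 lower, beside 1167 and 967 in the main fit. Myc passed with a log2 fold change of -0.76 (edgeR adjusted p = 0.01487). Calls were compared gene by gene only for Myc, the genes around the window, and the called list genes and Notch1 named above. Of these, 0 other than Myc changed with the block.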
